A study of Rattus norvegicus with 9 samples.

Results

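The cytosolic ribosomal protein genes were examined in the livers of 9 rats on a 1-colour Affymetrix rat expression array. They were chosen by name: a probe set (a group of short probes read as 1 signal) counted when its single gene symbol was Rpsa, Fau, Rplp0, Rplp1 or Rplp2, or Rpl or Rps with a number and an optional a, l or x. This gave 50 probe sets for 44 genes out of 14217 genes with a single symbol, namely 14 genes of the small and 30 of the large ribosomal subunit, and the probe set of highest mean signal stood for a gene. No single-symbol probe set was found for Fau, Rps27a, Rplp1, Rplp2, Rps4x, Rpl39l or Rpl10l, which are not analysed here. Another 34 probe sets list a ribosomal protein among several symbols and are given only as counts.

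The 9 animals were Wistar rats of 180 to 220 g, all carrying the label male, with no genotype or allele named and no age given. Of 36 rats divided at random, 12 went to each of control, model and drug, and 3 drawn at random per group were arrayed. The series title gives 7-P as the drug. What was done to the model rats, what 7-P is, its dose, and whether the drug group also received the model treatment are not stated in the labels. These name each group without its purpose, so the comparisons below ask only whether the groups differ.

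Ribosomal proteins assemble with ribosomal RNA into a small subunit, which reads the messenger RNA, and a large subunit, which joins amino acids into protein. Their messenger RNAs are among the most abundant in most cells, the liver included, where secretion of plasma proteins rests on steady translation. In mammals most of them begin at the cap with a C followed by a run of pyrimidines, the terminal oligopyrimidine (TOP) tract, through which translation of the set follows nutrient signals relayed by mTOR. Control of these genes is therefore largely exerted on translation, which an array of total RNA does not measure.

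The start sites are shown first because most of these genes hold a pyrimidine run near them. Their selection by name did not use this feature. RefSeq sequence of the rat assembly GRCr8 gave a window of 30 bases, 15 before and 15 after the annotated start, for 37 of the 44 genes. A C followed by at least 5 further C or T letters, on the gene's own strand and here called a tract, was present in 26 of these windows (70.3%). It could lie anywhere in the window and did not have to cover the annotated start. In Rpl13a, for example, the tract of 14 bases began at position -15 and ended before the start, and in Rps28 it began at position 5. Tracts that cover the start were not counted apart. The same tract was present in 7111 of 33469 windows of the whole table (21.2%) and in 15 of 62 windows of mitochondrial ribosomal protein genes (24.2%). In the lines that follow, the capitals mark the longest such tract, and the first 8 genes hold one while the last pair, Rpl3l and Rps27l, does not.
Rps23: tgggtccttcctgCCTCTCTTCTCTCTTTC
Rps24: tgagcggtCCTCTTTTCCTCCTTTacagct
Rpl34: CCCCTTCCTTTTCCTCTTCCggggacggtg
Rplp0: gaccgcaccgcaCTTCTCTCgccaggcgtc
Rpl35: cgCCCCTTCCTCTTTCTCTCgaaccgggcg
Rpl27a: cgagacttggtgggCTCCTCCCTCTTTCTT
Rpl19: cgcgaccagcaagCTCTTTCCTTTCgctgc
Rps15: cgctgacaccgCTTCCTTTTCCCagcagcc
Rpl3l: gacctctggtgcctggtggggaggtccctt
Rps27l: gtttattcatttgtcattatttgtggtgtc

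The windows lie on the plus strand for Rps23 (chr2:23814502-23814531), Rps24 (chr16:96502-96531), Rpl27a (chr1:172974558-172974587), Rpl19 (chr10:83519049-83519078), Rpl3l (chr10:14258431-14258460) and Rps27l (chr8:76443643-76443672). They lie on the minus strand for Rpl34 (chr2:221962269-221962298), Rplp0 (chr12:46718376-46718405), Rpl35 (chr3:43165907-43165936) and Rps15 (chr7:10068101-10068130). Each window spans the annotated first base of the gene. Inside the window the tract was 20 bases long in Rpl34, 18 in Rpl35 and 8 in Rplp0. It began at position -15, -13 and -3, before the annotated start, so these are not lengths within the messenger. In Rpl34 it began at the first base of the window and may extend further. Rpl3l, the striated muscle paralog of Rpl3, and Rps27l, a p53-inducible paralog of Rps27, held none in this window, and neither did 9 standard members, namely Rpl3, Rpl6, Rpl11, Rpl18, Rpl24, Rpl26, Rpl39, Rpl41 and Rps16. Its absence therefore does not set the paralogs apart. A run of these letters is a description of the window and not a measured TOP mRNA.

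The deposited value was 1 linear signal intensity for each probe set and array, and the arrays were not on a common scale: the 2% trimmed mean of the signals was between 33.2 and 80.4. All values below are log2 signals after quantile normalization, which gives every array the same distribution, so each difference is relative to the other probe sets. The array's Gapdh controls gave a 3′ to 5′ signal ratio, a sign of how much of the messenger's 5′ end was copied or intact, of 2.58 ± 0.915 (SD, n = 3) in the control livers, 8.85 ± 4.37 in the model livers and 6.41 ± 4.42 in the drug livers. Control 1 (1.52) and drug 1 (1.31) had the lowest ratios and model 2 (12.7) the highest. The 3′ to 5′ ratio of the beta-actin controls was also lowest on control 1 (4.23) and drug 1 (3.99). Inside the model group the 2 controls disagreed. Model 1 had the lowest Gapdh ratio there (4.09) but the highest beta-actin ratio of all arrays (12.8). Model 3 had the lowest beta-actin ratio of the model livers (7.31) and a Gapdh ratio of 9.77. Sex-linked transcripts went against the common male label on 7 arrays: Xist read between 8.06 and 10.9 there, but 2.65 on control 2 and 3.05 on drug 3. The Y-linked Eif2s3y reached 6.99 on control 2 and 7.17 on drug 3 but no more than 2.53 elsewhere. Control 2 and drug 3 were thus the only arrays with the pattern of the male label. All 3 model livers had the other pattern, so apparent sex was not balanced between the groups. The 6 hepatocyte markers on the array all passed the filter, while the skeletal muscle markers Acta1 and Ckm and the testis markers Prm1, Prm2 and Tnp1 did not. The summed signal of 4 neutrophil markers was 114 to 325 in control, 433 to 2067 in model and 133 to 1463 in drug livers, and that of 7 macrophage markers 526 to 1059.7, 884 to 1969 and 797 to 1497. That of 5 sinusoidal endothelium markers was 595 to 667, 689 to 1019 and 445 to 513, with no overlap between groups. For the hepatocyte, lymphocyte, stellate cell, bile duct cell and erythroid markers the ranges of the summed signal overlapped among all groups. The part of these cells in the results was not tested, and in whole liver a smaller number of cells of a type and less RNA per cell cannot be told apart.

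The ribosomal protein probe sets were bright in every group. Of the 44 genes, 41 had a mean signal above the filter, the 40th percentile of all probe sets (a log2 signal of 2.82), and 38 of the 44 were among the brightest 5%. Among them Rps29, a zinc-binding small subunit protein, was at 11.86, 11.37 and 11.69 in the control, 11.47, 10.76 and 10.83 in the model and 11.93, 10.92 and 11.07 in the drug livers. Rpl28 and Rpl30, large subunit proteins, and Rpl3l were below the filter and were not tested. Probe brightness depends on the probes, so levels do not order the transcripts by abundance.

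**Figure D1:**
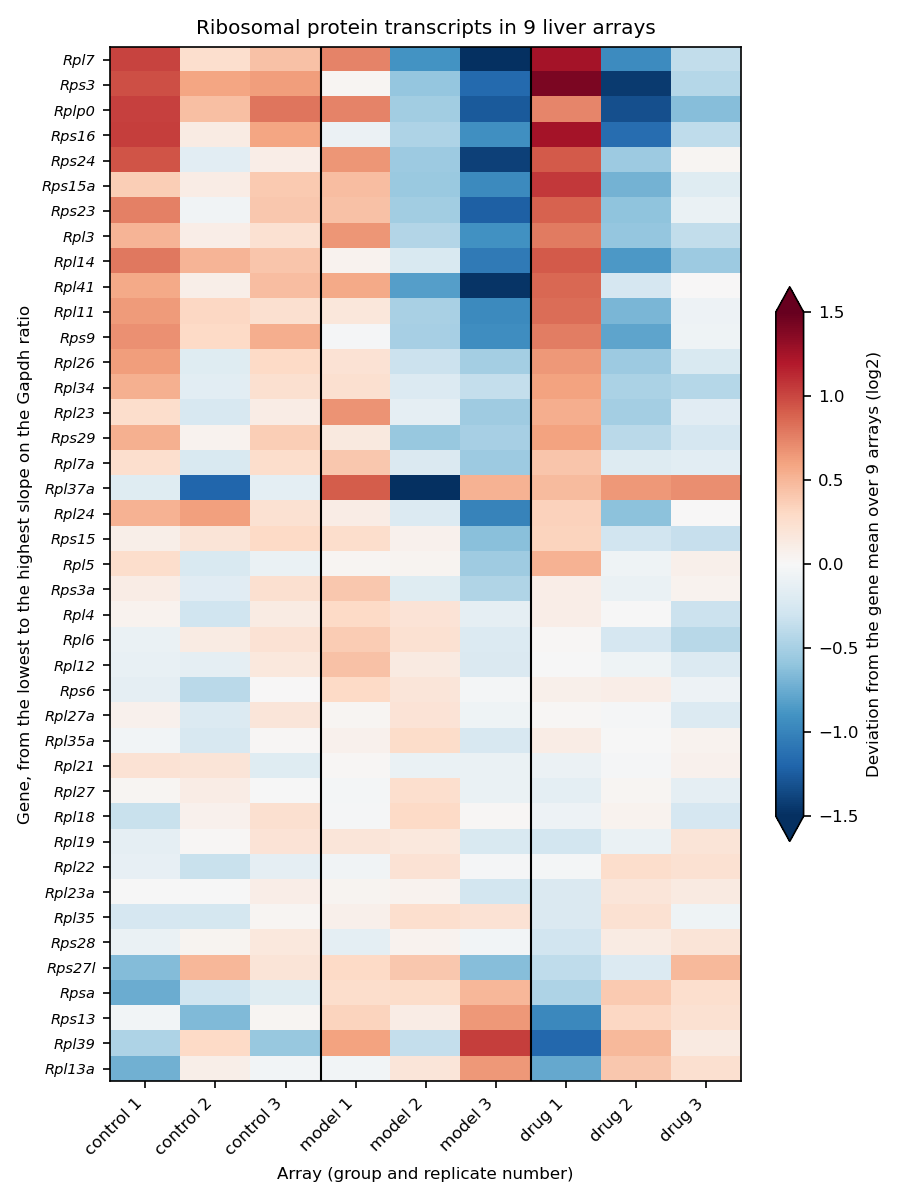
Heat map of the 41 ribosomal protein genes above the filter (rows) on the 9 arrays (columns), coloured by log2 signal minus the gene's mean over all arrays, with rows ordered by slope on the Gapdh ratio and colours ending at 1.5. Model 1 has the most genes above their own mean (34 of 41) and model 3 the fewest (7 of 41).

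In model livers against control livers no ribosomal protein gene passed the test, and the set was spread to both sides of 0. Of the 41 genes, 16 had a higher and 25 a lower mean in the model livers, with a median log2 difference of -0.13 and a range from -1.30 (Rps3) to 0.75 (Rpsa), beside a median of 0.02 over all 18625 probe sets tested, 48.9% of which were lower. The 14 small subunit genes had a median difference of -0.46 (4 higher, 10 lower) and the 27 large subunit genes -0.04 (12 higher, 15 lower). At an adjusted p under 0.05, limma's moderated test with Benjamini-Hochberg adjustment called 0 of 41 genes and 0% of all probe sets, and the lowest adjusted p of a ribosomal protein gene was 0.384. At an unadjusted p under 0.05 it called 1 gene higher (6.51% of all probe sets) and 2 lower (5.54%), which is 3 of 41 members beside 12.1% of all probe sets in both directions. That count moved with the processing: 9 of 41 without normalization (8.72% of all probe sets), 8 with each array centred on its median (11.6%), 7 with one trimmed mean (13.3%) and 9 with only these groups in the fit (16.1%).

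The split between higher and lower genes moved with the scaling and with single arrays. Without normalization 39 of the 41 genes were lower in the model livers, with a median of -0.94 where that of all probe sets was -0.40. With each array centred on its median, 37 were lower (median -0.61, all probe sets -0.07), and with arrays scaled to one trimmed mean, 33 (median -0.38, all probe sets 0.16). Leaving out model 3 turned the median to 0.02, leaving out model 1 gave -0.23 and leaving out control 3 gave -0.05. At an unadjusted limma p under 0.05, leaving out model 1 gave 1 higher and 13 lower members (15.6% of all probe sets in both directions), leaving out drug 1 gave 9 members (17.5%) and drug 2 gave 7 (12.7%). Leaving out model 3 gave 0 members (6.21%), as did leaving out control 1 (7.79%). Without control 2 and drug 3, the only arrays whose sex-linked transcripts matched the male label, the median was -0.18 and again 0 genes passed.

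The lower genes with the smallest unadjusted p in this comparison came from both subunits. Rps3, which lines the channel where messenger RNA enters the small subunit, was at 9.84, 9.47 and 9.50 in the control livers, 8.91, 8.29 and 7.71 in the model livers and 10.29, 7.44 and 8.45 in the drug livers. All 3 model livers lay below all 3 control livers, and the drug livers spanned both. The difference between model and control was -1.30 (SE 0.601), a model level 0.407 times that of the control, with a limma adjusted p of 0.418.

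Rps9, a small subunit protein that bears on the accuracy of decoding, was at 10.19, 9.80 and 10.04 in control, 9.48, 9.001 and 8.57 in model and 10.27, 8.71 and 9.44 in drug livers. The model and control groups did not overlap, and their difference was -0.995 (SE 0.376) with a limma adjusted p of 0.395. Rpl24, which forms a bridge between the subunits, was at 10.09, 10.18 and 9.79 in control, 9.68, 9.36 and 8.56 in model and 9.91, 8.95 and 9.57 in drug livers. Here too every model liver was below every control liver, by -0.82 (SE 0.330) on average, with a limma adjusted p of 0.401.

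Rpl14, a protein of the large subunit's surface, was at 9.29, 9.01 and 8.91 in control, 8.55, 8.27 and 7.45 in model and 9.42, 7.64 and 7.96 in drug livers. The model livers were again lower without overlap, and differed by -0.98 (SE 0.447; limma adjusted p 0.416). Averaged with its dim second probe set, Rpl14 differed by -0.06. In all, 6 of the 41 genes were lower in every model liver than in every control liver (Rps9, Rpl24, Rpl14, Rps3, Rpl11 and Rps16), beside 10.9% of all probe sets. Rps3, Rps9, Rpl14, Rpl11 and Rps16 are also among the genes whose level followed the Gapdh ratio inside the groups, described below.

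Rpsa, the laminin receptor precursor that also serves as a small subunit protein, had the highest positive difference. Its brightest probe set was at 9.24, 9.69 and 9.81 in control, 10.26, 10.26 and 10.49 in model and 9.53, 10.38 and 10.24 in drug livers. The model livers were higher without overlap by 0.75 (SE 0.262), which is 1.69 times the control level, with a limma unadjusted p of 0.0165 and an adjusted p of 0.384. The difference was -0.14 without normalization, 0.19 with median centring and 0.096 with the probe sets of Rpsa averaged, which did not share a direction, as given below.

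Rpl35, which sits beside the exit of the peptide tunnel, was at 10.79, 10.78 and 11.07 in control, 11.11, 11.29 and 11.25 in model and 10.83, 11.28 and 10.98 in drug livers. It was higher in the model livers without overlap by 0.34 (SE 0.189; limma adjusted p 0.462), but lower without normalization (-0.38) and with median centring (-0.05). Rps13, a small subunit protein with a dim probe set, was at 4.01, 3.39 and 4.09 in control, 4.39, 4.17 and 4.70 in model and 3.09, 4.36 and 4.28 in drug livers. Its model livers were higher without overlap by 0.59 (SE 0.417; limma adjusted p 0.548). With Rpl22 these made 4 genes whose model livers were all above the control livers, beside 11.8% of all probe sets.

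Rps6, whose protein is phosphorylated by a kinase downstream of mTOR, was at 10.99, 10.72 and 11.13 in control, 11.42, 11.30 and 11.09 in model and 11.20, 11.22 and 11.04 in drug livers. Its groups overlapped, the model minus control difference was 0.32 (SE 0.185; limma adjusted p 0.475), and the sign turned without normalization (-0.38) and with median centring (-0.05).

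**Figure D2:**
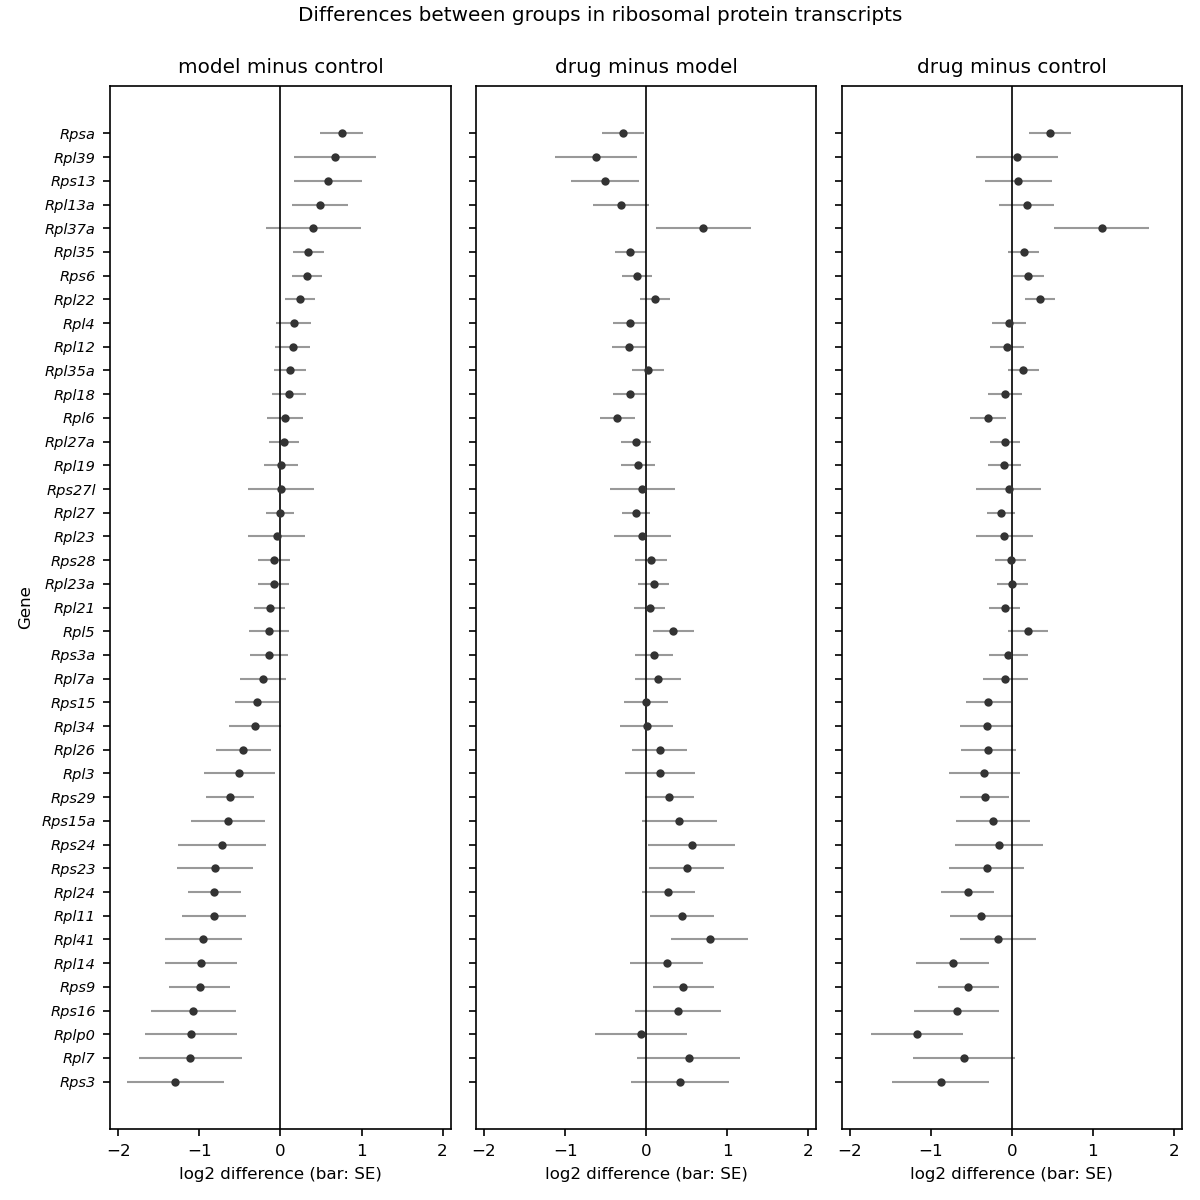
Log2 difference of group means for each of the 41 ribosomal protein genes in the 3 comparisons, with bars for the standard error from limma. None of the differences passed an adjusted p of 0.05, and they run from -1.30 (Rps3, model against control) to 1.11 (Rpl37a, drug against control).

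In drug livers against model livers the differences lay on both sides of 0 and none passed the test. Of the 41 genes 24 were higher and 17 lower in the drug livers, with a median of 0.06 beside -0.02 over all probe sets, 52.1% of which were lower. No gene passed limma's adjusted p of 0.05 (0% of all probe sets), the lowest adjusted p was 0.998, and at an unadjusted p under 0.05 limma called 0 of 41 beside 1.47% of all probe sets higher and 1.8% lower (3.28% in all). In no gene were the groups free of overlap, against 3.35% of all probe sets higher and 4.7% lower. The median turned to -0.09 without drug 1 and to -0.08 without model 3, and was 0.18 without model 1 and 0.15 without drug 2. Without normalization 11 of 41 genes were lower, and with median centring 12.

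The gene with the smallest unadjusted p on the higher side was Rpl41, the smallest ribosomal protein, at 10.70, 10.22 and 10.60 in control, 10.70, 9.30 and 8.66 in model and 10.99, 9.88 and 10.13 in drug livers. Model 2 and model 3 were the lowest arrays while model 1 lay within the drug livers' range, and the difference was 0.78 (SE 0.473; limma adjusted p 0.998). Rpl5 and Rpl11 bind a small ribosomal RNA together and can hold Mdm2, the p53 ligase, when ribosome assembly is disturbed. Rpl5 was at 10.60, 10.11 and 10.24 in control, 10.36, 10.38 and 9.80 in model and 10.86, 10.28 and 10.41 in drug livers, 0.34 higher in drug than in model (SE 0.248; limma adjusted p 0.998). Rpl11 was at 10.23, 9.90 and 9.83 in control, 9.76, 9.10 and 8.64 in model and 10.42, 8.90 and 9.51 in drug livers. Rpl11 lay below its control livers in every model liver, and Rpl5 overlapped. Their model minus control differences were -0.82 and -0.14, with limma adjusted p-values of 0.426 and 0.819. Whether the 2 genes differ from each other was not tested.

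Rps9 was 0.46 higher in the drug than in the model livers and Rpl37a 0.71 higher, both with overlap. Single arrays moved both: leaving out each in turn gave 0.058 (without drug 1) to 0.84 (without drug 2) for Rps9 and -0.11 (without model 2) to 1.21 (without model 1) for Rpl37a. On the lower side, Rpl6, a large subunit protein, was at 10.34, 10.55 and 10.64 in control, 10.82, 10.66 and 10.22 in model and 10.45, 10.18 and 10.01 in drug livers, a difference of -0.35 (SE 0.219). Rpl39, which lines the peptide tunnel, was at 4.18, 4.95 and 4.07, then 5.24, 4.29 and 5.69, then 3.47, 5.13 and 4.78 in the same order of groups, a difference of -0.62 (SE 0.506). Rps13 was -0.51 and Rpsa -0.28 lower, and the limma adjusted p was 0.998 for each of these. Without drug 1 the differences shrank to -0.12 for Rpl39, -0.094 for Rps13 and -0.023 for Rpsa. They reached -1.01 for Rpl39 without model 2, and -0.74 for Rps13 and -0.45 for Rpsa without drug 2.

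In drug livers against control livers, which share the control arrays with the first comparison and the drug arrays with the second, 11 genes were higher and 30 lower. The median was -0.09 beside -0.02 over all probe sets, 51.5% of which were lower. No gene passed limma's adjusted p of 0.05 (0% of all probe sets), the lowest adjusted p was 0.685, and at an unadjusted p under 0.05 limma called 0 of 41 beside 4.19% of all probe sets higher and 3.03% lower (7.22% in all). Without normalization 40 genes were lower (median -0.74, all probe sets -0.36), with median centring 37 (median -0.45, all probe sets -0.07), and with one trimmed mean 32 (median -0.30). Leaving out control 2 gave a median of -0.19, and leaving out control 2 and drug 3 gave -0.17 with 0 genes past the adjusted threshold. Without drug 1, 2 members were higher and 8 lower at an unadjusted limma p under 0.05, beside 20.1% of all probe sets.

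The lowest drug minus control difference was that of Rplp0, which anchors the stalk that recruits elongation factors. Rplp0 was at 10.68, 10.11 and 10.47 in control, 10.41, 9.14 and 8.40 in model and 10.40, 8.34 and 9.02 in drug livers. Drug 1 and model 1 lay within the control range, and the other arrays of their groups lay 1 or more log2 units lower. The difference was -1.17 (SE 0.567; limma adjusted p 0.685), and it was -1.73 without drug 1 and -0.71 without drug 2. The other lower genes with the smallest unadjusted p were Rps3 at -0.88, Rpl14 at -0.73 and Rpl24 at -0.54, with limma adjusted p-values of 0.735, 0.716 and 0.716. The sign of Rpl14 turned when its dim second probe set, below the filter, was averaged in (0.64).

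Rpl22, a large subunit protein with the paralog Rpl22l1, was at 10.25, 10.04 and 10.24 in control, 10.32, 10.59 and 10.36 in model and 10.35, 10.64 and 10.60 in drug livers. All drug livers lay above all control livers, by 0.35 (SE 0.183; limma adjusted p 0.698), though the sign turned without normalization (-0.31) and with median centring (-0.02). Rpl37a, a zinc-binding large subunit protein, was at 10.02, 9.01 and 10.05 in control, 11.10, 8.47 and 10.72 in model and 10.67, 10.85 and 10.90 in drug livers. The drug livers were close together and above all control livers, by 1.11 (SE 0.587; limma adjusted p 0.698), while model 2 lay far below the other model livers. These 2 genes were the members higher without overlap, beside 6.05% of all probe sets, and 0 were lower without overlap, beside 6.49%. Rpsa (0.47) and Rps6 (0.21) were also higher, with limma adjusted p-values of 0.709 and 0.781, and with overlap. Neither direction held throughout: Rpsa was at -0.17 without normalization and -0.12 with its probe sets averaged, and Rps6 at -0.41 without normalization and -0.12 with median centring.

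Asked for any difference among the 3 groups, limma's moderated F test called 0 of 41 genes at an adjusted p of 0.05 (0% of all probe sets), and the lowest adjusted p of a member was 0.662. At an unadjusted p under 0.05 it called 1 member, beside 7.45% of all probe sets.

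Inside the groups, the level of many members varied with the Gapdh ratio. Averaged over the 41 genes, the deviation from each gene's mean was 0.21, -0.0078 and 0.18 on the control arrays, 0.26, -0.17 and -0.43 on the model arrays and 0.28, -0.26 and -0.08 on the drug arrays. The highest values were those of model 1, drug 1 and control 1, whose Gapdh ratios (4.09, 1.31 and 1.52) were the lowest of their own groups. By the beta-actin controls, model 1 had the highest ratio of all arrays (12.8). The share of the array's summed signal held by these genes was 2.34% ± 0.252 (SD, n = 3) in control, 1.89% ± 0.475 in model and 2.04% ± 0.563 in drug livers, and the ranges of the 3 groups overlapped.

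The slope of each gene's level on the log2 Gapdh ratio was then fitted inside the groups, as log2 signal for each doubling of the ratio, a test chosen after seeing the data. In this limma fit 16 of the 41 genes passed an adjusted p of 0.05, beside 14.3% of all probe sets. Of these, 15 were lower where the ratio was high (6.65% of all probe sets) and 1 was higher (7.66%). Both subunits were represented, with 7 of 14 small and 9 of 27 large subunit genes. The call rested on few arrays: 0 members and 0% of all probe sets passed when drug 1 was left out, and 7 members and 7.33% when drug 2 was. Leaving out both control 1 and drug 1 gave 0 members and 0% of all probe sets, with 32 of the 41 slopes below 0 beside 49.4% of all probe sets, and 10 of 41 at an unadjusted limma p under 0.05 beside 12.2%.

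Rpl7, a large subunit protein, had the lowest slope, -0.79 (SE 0.137; limma adjusted p 0.00741). It was at 10.71, 9.95 and 10.14 in control, 10.45, 8.81 and 8.21 in model and 10.95, 8.76 and 9.33 in drug livers, with model 1 and drug 1 more than 1 log2 unit above the others of their groups. Rps3 (-0.74), Rplp0 (-0.67), Rps16 (-0.65), Rps24 (-0.59), Rps15a (-0.55), Rps23 (-0.53), Rpl3 (-0.52), Rpl14 (-0.51) and Rpl11 (-0.45) followed. They include Rps23, which lies at the decoding centre, Rpl3, which lies by the peptidyl transferase centre, and Rps16, which reaches toward the bound transfer RNA. The remaining 5 were Rps9 (-0.41), Rpl26 (-0.40), Rpl34 (-0.38), Rpl23 (-0.38) and Rps29 (-0.36), and the limma adjusted p-values of all 15 lay at or below 0.0342.

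Rps16 shows the pattern in its values, 10.04, 9.13 and 9.60 in control, 8.92, 8.55 and 8.09 in model and 10.25, 7.86 and 8.63 in drug livers. Drug 1 was the highest array of all and drug 2 the lowest. Rpl13a, which is also known outside the ribosome as a translational silencer in the interferon gamma response, was the gene with a positive slope, 0.40 (SE 0.0916; limma adjusted p 0.0208). It was at 10.03, 10.84 and 10.70 in control, 10.71, 10.94 and 11.39 in model and 9.98, 11.15 and 10.99 in drug livers, lowest on control 1 and drug 1. Rps6 (-0.05), Rpl27 (0.05) and Rpl35 (0.11) had slopes near 0, with limma adjusted p-values of 0.74, 0.701 and 0.352.

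**Figure D3:**
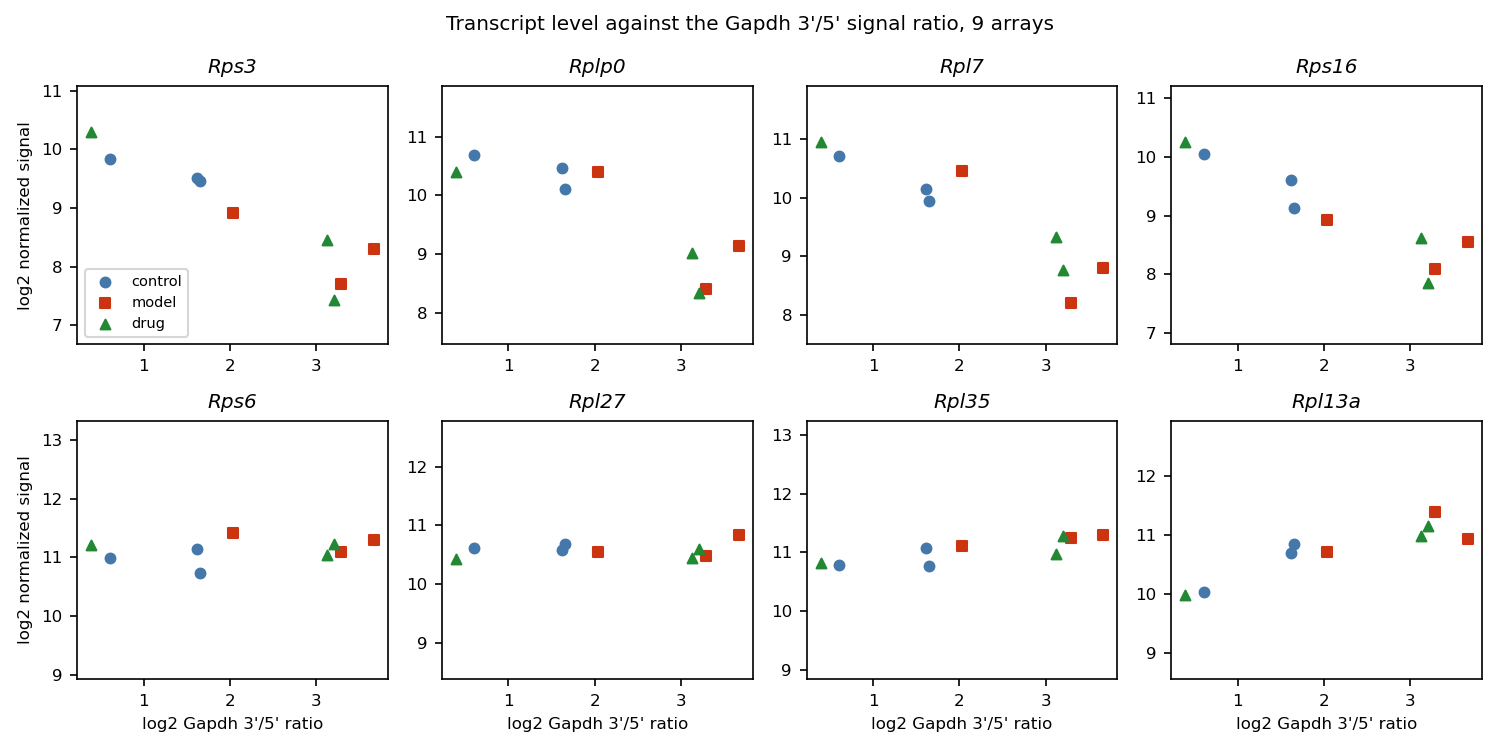
Log2 signal of selected ribosomal protein genes against the log2 ratio of 3′ to 5′ Gapdh signal, 1 point for each of the 9 arrays, coloured by group. Rpl7 and Rps3 are high on control 1 and drug 1, where the ratio is lowest, and Rpl13a is lowest there.

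The group differences of the 15 genes with a called negative slope were on one side of 0 in the comparisons with control. Their model minus control differences were all below 0 with a median of -0.81, which was 0.09 with the log2 Gapdh ratio as a term in the fit. Their drug minus control median was -0.34 (15 of 15 lower), or 0.05 with the term, and their drug minus model median 0.39 (13 of 15 higher), or -0.09 with it. These genes were picked on the same arrays by their slope on this ratio, so part of the change with the term follows from that choice. The 3 comparisons also share arrays, and these medians are descriptions. Over all 41 genes the medians with the term were 0.09 for model against control, -0.07 for drug against model and 0.01 for drug against control. The 25 members whose slope did not pass had medians of 0.04 for model against control, -0.05 for drug against model and -0.04 for drug against control. The model livers had the highest mean ratio, and what made the ratio differ between arrays was not tested. A tract anywhere in the start-site window was present in 8 of 12 windows of the genes with a called negative slope. It was present in 17 of 23 windows of the other members above the filter.

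Members differed widely in how steady they were among rats of one group. The median within-group SD was 0.443 for the 41 genes and 0.494 for all probe sets tested. Rpl7 (0.965), Rps3 (0.911), Rpl37a (0.892) and Rplp0 (0.858) varied most, and Rpl27 (0.124), Rpl22 (0.142), Rpl21 (0.144) and Rpl27a (0.157) least. Rpl27, a large subunit protein, was at 10.61, 10.69 and 10.57 in control, 10.55, 10.83 and 10.48 in model and 10.43, 10.60 and 10.45 in drug livers, with all groups overlapping.

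The genes did not move as a single block across the arrays. Over the 820 pairs of members, Pearson's r across the 9 arrays had a median of 0.188, and 524 pairs were above 0. With the mean of all members, 12 genes had an r above 0.9, among them Rpl3 (0.979), Rps23 (0.978) and Rpl7 (0.975), while 9 were below 0, among them Rpl13a (-0.856), Rpsa (-0.717) and Rpl35 (-0.649). The arrays share the Gapdh ratios and group means given above, and each gene is part of the mean, so these values are descriptions. The 8 other genes most like the member mean were H2az1 (0.987), Ube2k (0.985), Calu (0.982), Sft2d1 (0.978), Faf1 (0.974), Ostc (0.972), Rpn2 (0.970) and Gng5 (0.968). All of these 8 had a negative slope on the Gapdh ratio, from -0.77 for Rpn2 to -0.33 for Sft2d1. They were picked on the same arrays by likeness to the member mean, which had an r of -0.836 with the log2 Gapdh ratio. The sign of their slopes therefore follows largely from that choice.

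Where a gene had more than 1 probe set above the filter, the probe sets often disagreed. The second probe set of Rpsa was at 10.12, 9.89 and 10.24 in control, 10.02, 9.57 and 9.002 in model and 10.24, 8.63 and 9.23 in drug livers, so its model minus control difference was -0.56 (SE 0.392; limma adjusted p 0.547) where the first gave 0.75. The third gave 0.09 with a limma adjusted p of 0.881. Against control, the drug livers gave 0.47, -0.72 and -0.12 on the 3 probe sets. The probe sets of Rpsa therefore gave both directions. The name of the first one carries the suffix that the array maker uses for probe sets matching several transcripts. That of the third carries the suffix x, used where some probes may also match other sequences.

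Rps24, mutated in some families with Diamond-Blackfan anaemia, was at 10.52, 9.42 and 9.68 in control, 10.24, 9.03 and 8.18 in model and 10.50, 9.03 and 9.61 in drug livers on its brighter probe set. The dimmer probe set was at 4.51, 3.75 and 4.67, then 5.09, 5.60 and 5.80, then 4.34, 5.47 and 5.20. The model minus control difference was -0.72 with overlap on the first and 1.18 without overlap (SE 0.383; limma unadjusted p 0.0113, adjusted p 0.384) on the second. Rpl3 gave -0.51 on its brighter and 0.44 on its dimmer probe set in the same comparison, and in drug against model 0.17 and -0.48. The name of the dimmer Rpl3 probe set carries the suffix x as well, so some of its probes may match other sequences. The probe sets of Rpl7 shared a sign in model against control (-1.11 and -0.65) but not in drug against model (0.52 and -0.20).

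**Figure D4:**
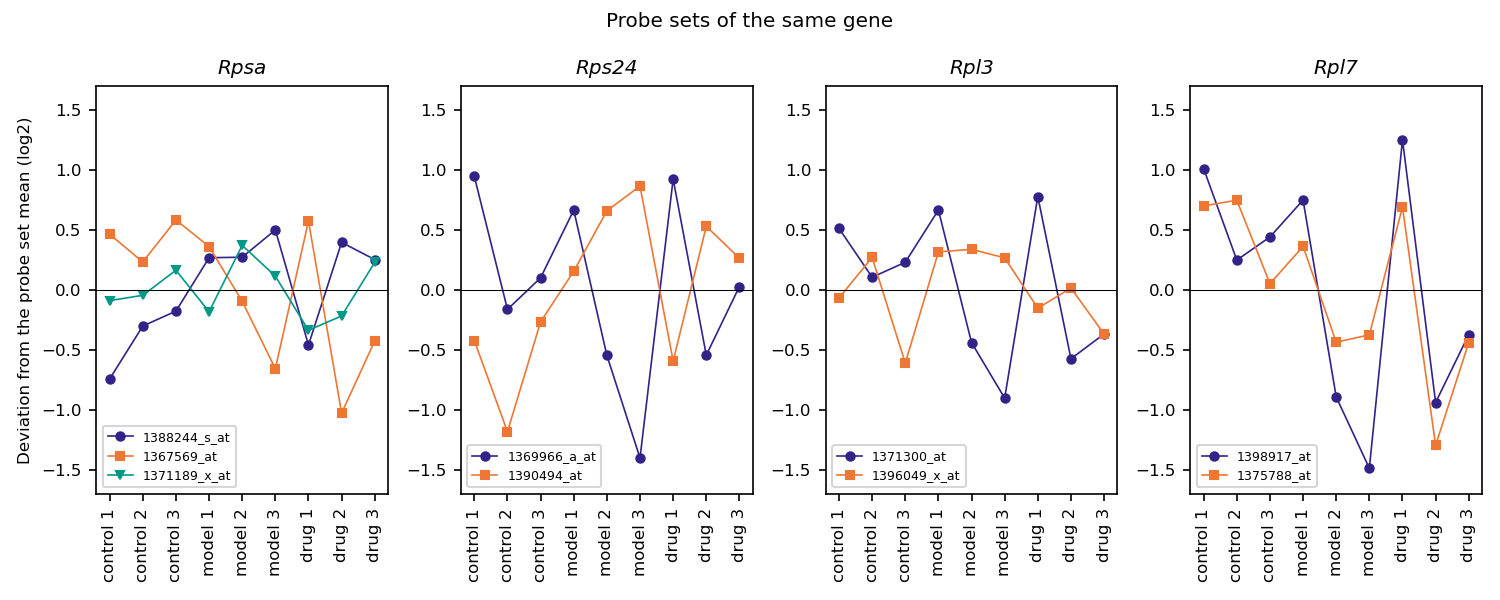
Log2 signal minus the probe set's own mean over the 9 arrays, on each array, for every probe set above the filter of the genes with more than 1; lines join the values of a probe set. For Rpsa and Rps24 the probe sets move in different directions between the control and model livers.

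Of the paralogs, Rps27l was at 5.21, 6.36 and 6.06 in control, 6.16, 6.27 and 5.23 in model and 5.49, 5.67 and 6.36 in drug livers, with all groups overlapping. Rpl3l was between -0.61 and 1.62 on all arrays, below the filter, while Rpl3 itself was bright in each liver. The 34 probe sets that list a ribosomal protein among several symbols had a median model minus control difference of -0.29 (7 higher, 27 lower), a drug minus model median of 0.06 and a drug minus control median of -0.28 (4 higher, 30 lower). With the log2 Gapdh ratio as a term these medians were -0.04, -0.06 and -0.07. None of the 34 probe sets passed limma's adjusted p of 0.05 in any comparison. Of the 34, 12 (35.3%) had a slope on the Gapdh ratio that passed, beside 14.3% of all probe sets.

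Other genes of the translation machinery were read from lists set beside the ribosomal proteins, and limma called 0 of them at an adjusted p of 0.05 in any comparison. Of 20 listed elongation factors and other TOP mRNAs, 14 were measured. Their medians were -0.41 (2 higher, 12 lower) for model against control, 0.17 for drug against model and -0.21 for drug against control. With the log2 Gapdh ratio as a term these medians were -0.03, 0.02 and -0.05. Hnrnpa1, an RNA-binding splicing factor, was at 5.81, 5.99 and 6.70 in control, 7.60, 7.65 and 8.44 in model and 6.71, 8.30 and 8.16 in drug livers. The model livers were higher by 1.73 and the drug livers by 1.56, with limma adjusted p-values of 0.384 and 0.676. Eif3l, a subunit of an initiation factor, differed by -1.25 in model against control, and Eef2, which moves the ribosome along the messenger, by -0.90 in drug against control. Eef1b2, which recharges an elongation factor with GTP, differed by 0.71 and Naca, which binds emerging chains, by 0.23 in drug against model. The slopes on the Gapdh ratio of Hnrnpa1 (0.47), Eif3l (-0.73), Eef2 (-0.54) and Eef1b2 (-0.56) passed a limma adjusted p of 0.05, and that of Naca did not. With the log2 Gapdh ratio as a term, Hnrnpa1 differed by 0.92 in model and 1.11 in drug against control. The other differences just given became -0.01 (Eif3l), -0.39 (Eef2), 0.29 (Eef1b2) and 0.21 (Naca).

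The 32 genes of ribosome biogenesis had medians of -0.12, -0.04 and 0.01 in the same order of comparisons. Bop1, needed to process large subunit RNA, differed by -0.98 and Nhp2, part of the snoRNA particles that modify ribosomal RNA, by -0.52 in model against control. Nhp2 differed by -0.79 in drug against control, and Tsr1, a small subunit maturation factor, by -0.39 and Taf1d, a subunit of the RNA polymerase I machinery, by 0.58 in drug against model. None of these passed the test.

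Of 20 genes of mTOR signalling and cap binding, 19 were measured, with medians of -0.06, -0.12 and -0.06. Rictor, which defines one mTOR complex, differed by 0.95 and Eif4ebp2, a repressor of cap binding, by -0.55 in model against control. Rptor, which defines the other complex, differed by -0.54 and Mtor itself by -0.39 in drug against model. In drug against control Rptor differed by -0.64 and Akt1s1, an inhibitory partner of mTOR, by -0.64. None of these passed the test.

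The 73 mitochondrial ribosomal proteins build the separate ribosome of mitochondria. Their medians were -0.44 (14 higher, 59 lower) for model against control, 0.08 (47 higher, 26 lower) for drug against model and -0.39 (10 higher, 63 lower) for drug against control. Of all probe sets tested, 48.9%, 52.1% and 51.5% were lower in the same order of comparisons. With the log2 Gapdh ratio as a term the medians of the mitochondrial set were -0.06, -0.06 and -0.15. In model against control Mrps18a differed by -1.18 and Mrpl35 by -0.80, in drug against model Mrpl49 by -0.62 and Mrpl47 by -0.55, and in drug against control Mrpl4 by -0.73 and Mrps2 by -0.69. None passed limma's adjusted p of 0.05, and 24 of the 73 (32.9%) had a slope on the Gapdh ratio that passed, beside 12.3% of all genes tested. The same count was 6 of 14 (42.9%) for the elongation factors and other TOP mRNAs, 5 of 32 (15.6%) for ribosome biogenesis and 3 of 19 (15.8%) for mTOR signalling and cap binding. Whether the cytosolic and mitochondrial sets differ from each other was not tested.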

How the data were processed

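Livers of 9 rats were read on 9 arrays, 3 a group, each from its own rat. The deposited values are 1 linear signal intensity for each of 31099 probe sets, made with GCOS 1.2 per the submitters' processing notes; its settings are not given in the sources used here. After 57 control probe sets were left out, 31042 were log2-transformed and quantile-normalized, and 18625 with a mean at or above the 40th percentile were tested. Of the 31042, the platform annotation gives 20826 a single symbol, 436 several and 9780 none. All 9 arrays were fitted together with limma 3.58.1 in R 4.3.3 (lmFit, eBayes with an intensity trend), two-sided, with Benjamini-Hochberg adjustment over all 18625. The script was tested on simulated data. Quantile normalization removes any shift common to most probe sets.

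The members and lists were chosen with earlier results of these data known. Named for each comparison are the 4 higher and 4 lower members with the smallest unadjusted p, then set genes, paralogs and their parents, bright and dim members, genes whose probe sets disagree, 2 genes of each other list for each comparison, and the 8 genes most correlated with the member mean. Genes of the slope and spread results follow their own values and were chosen after these were seen. Array number limits the precision: an exact permutation test of 3 against 3 cannot go below 0.1. Alternatives covered scaling, background offset, filter, trend, groups fitted, probe set choice, replicate block, a Gapdh term and arrays left out.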

Additional observations from a re-analysis of the deposited data

How the results depend on the processing

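No alternative gave a ribosomal protein gene past an adjusted p of 0.05 in any of the 3 comparisons or in the F test. For the median difference of the 41 genes, model against control moved from -0.13 to -0.94 without normalization and to -0.61 with median centring, and drug against control from -0.09 to -0.74 and -0.45. The median of all probe sets moved to -0.40 and -0.36 without normalization. Leaving out each array in turn gave medians from -0.23 to 0.02 in model against control, -0.09 to 0.18 in drug against model and -0.19 to -0.07 in drug against control. The number of genes whose slope on the Gapdh ratio passed, 16, beside 14.3% of all probe sets, was 27 without normalization (19.8%), 8 without an intensity trend (9.17%), and 0 without control 1 and drug 1 (0%), and ran from 0 to 18 with each array left out in turn.

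Among the 24 named differences, 513 of the alternative values kept their direction, and the limma adjusted p-values over the alternatives lay between 0.082 and 1. The sign turned without normalization for Rpsa (-0.14), Rpl35 (-0.38) and Rps6 (-0.38) in model against control and for Rpl22 (-0.31), Rpsa (-0.17) and Rps6 (-0.41) in drug against control. With median centring it turned for Rpl35 (-0.049) and Rps6 (-0.051) in model against control and for Rpl22 (-0.022) and Rps6 (-0.12) in drug against control. When the probe sets of each gene were averaged it turned for Rpsa (-0.12) and Rpl14 (0.64) in drug against control, and for Rpl37a in drug against model without model 2 (with each array left out in turn, -0.11 to 1.21). The cause was not tested, except that the last 3 follow from the probe set or array changed.

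The groups share replicate numbers, and the labels do not say whether a number pairs rats or marks a batch. Of 9 same-numbered pairs 5 had a correlation of deviations above 0.1 (range -0.0052 to 0.48). Differently numbered pairs ran from -0.37 to 0.32, the highest being control 2 with drug 3, the only arrays with the pattern of the male label. The 3 of 9 arrays that correlated best with an array of their own number were control 1, model 1 and drug 1. Drug 1 was at 0.48 with control 1 and 0.39 with model 1. Control 1 and drug 1 also had the lowest Gapdh ratios of all arrays. Whether the number stands for a pairing or a batch was not tested. With the replicate number as a block, 0 members passed in each comparison, beside 3 of all probe sets tested in model against control. In that fit 0 slopes passed, beside 0% of all probe sets. The members at an unadjusted limma p under 0.05 in model against control rose in number from 3 to 13 (19.5% of all probe sets).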
